A study of Mus musculus with 18 samples.

Results

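The genes described here are 10 transcripts by which thermogenic brown adipocytes are commonly recognised: Ucp1, Cidea, Dio2, Ppargc1a, Prdm16, Elovl3, Cox7a1, Cox8b, Zic1 and Ebf2. They were taken by symbol from the deposited gene count tables, and all 10 were present among the 25124 genes of each table. RNA was measured in 3 fat depots, inguinal white fat (iWAT), epididymal white fat (eWAT) and brown fat (BAT), of wild type (WT) mice and of mice lacking caspase-6 in every tissue (C6KO), with 3 libraries for each depot and genotype and 18 libraries in all. Every group received a high fat diet (HFD) with 60% fat for 12 weeks. By the study's methods, its mice were male on a C57BL/6J background, the knockout line came from The Jackson Laboratory, and both genotypes were bred from heterozygous parents. Diets in the study were begun at 10 to 14 weeks of age. The controls thus share the diet, and a lean group was not analysed here. The knockout is not confined to adipocytes, and the libraries come from whole tissue, so fewer cells of a type and less RNA per cell cannot be told apart in any value below.

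Brown adipocytes burn fuel to make heat. Ucp1 lets protons return across the inner mitochondrial membrane without making ATP, and sympathetic noradrenaline switches the process on through cyclic AMP, lipolysis and transcription. Prdm16, Ebf2 and Ppargc1a are transcriptional regulators that set up or boost this programme, Dio2 raises thyroid hormone activity inside the cell, and Zic1 marks the classical interscapular lineage rather than the beige adipocytes that can appear in white fat. Beige adipocytes share Ucp1 and most of the other genes, which makes their level in iWAT a usual readout of browning.

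Promoter sequence of 7 of the 10 genes (Ucp1, Dio2, Ppargc1a, Prdm16, Cox7a1, Cox8b and Zic1) was matched in RefSeq annotation of GRCm38.p6, the build called mm10 in the submitters' processing notes. Cyclic AMP acts on transcription through proteins that bind TGACGTCA or its shorter form TGACG, and the letters were searched on both strands from 250 bases before to 50 bases after each start, so that TGACG also counts within TGACGTCA. TGACG was found for Ucp1, Dio2 and Ppargc1a and in 20.8% of 32851 promoters of that length. The full TGACGTCA was found for Dio2 and in 1.79% of all promoters. The 250 bases before the start of these 3 genes are shown because TGACG was found in them, with the matched bases in capitals. Bases are counted from the start, with the first base before it as -1.
Ucp1, chr8:83290098-83290347, plus strand: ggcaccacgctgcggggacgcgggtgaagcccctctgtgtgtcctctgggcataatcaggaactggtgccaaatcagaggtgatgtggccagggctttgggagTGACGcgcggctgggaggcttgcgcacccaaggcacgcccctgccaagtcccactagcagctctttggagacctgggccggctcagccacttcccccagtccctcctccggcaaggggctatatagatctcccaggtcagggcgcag
Dio2, chr12:90739039-90739288, minus strand: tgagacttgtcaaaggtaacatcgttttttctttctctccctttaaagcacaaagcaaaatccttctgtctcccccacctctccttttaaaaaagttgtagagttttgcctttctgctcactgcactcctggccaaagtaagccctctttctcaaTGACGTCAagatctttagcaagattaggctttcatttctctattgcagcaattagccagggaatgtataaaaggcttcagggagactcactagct
Ppargc1a, chr5:51567726-51567975, minus strand: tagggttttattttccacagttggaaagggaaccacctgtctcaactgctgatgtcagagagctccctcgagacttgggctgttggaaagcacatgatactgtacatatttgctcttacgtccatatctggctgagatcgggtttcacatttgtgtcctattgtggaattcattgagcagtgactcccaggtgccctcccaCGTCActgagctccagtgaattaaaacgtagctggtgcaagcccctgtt
The match began at base -147 for Ucp1, at base -95 for Dio2 and at base -49 for Ppargc1a, where it lay on the opposite strand. A TATAAA element lay at base -30 of Dio2 and at base 4 after the start of Cox8b, and 13.6% of all promoters held 1. None of the 7 promoters held TCAAGGTCA (0.423% of all promoters), the direct repeat of a nuclear receptor site known as DR1 (0.0396%) or the palindromic EBF site (0.904%). The Ppargc1a promoter belongs to a start 13804 bases upstream of the transcript on which its reads were counted. These matches describe the letters of the window and do not show binding.

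Sequencing depth was lower in BAT, with 7803108 to 12428683 counts per library, than in iWAT (16506034 to 19043523) and eWAT (16717201 to 19139694). Casp6, on chromosome 3 at 129901415 to 129914112, had, in each depot, C6KO libraries that all lay below the WT ones, with mean CPM (counts scaled to library size) of 6.55 against 18.7 in iWAT, 5.65 against 20.5 in eWAT and 5.12 against 14.6 in BAT. That difference passed the edgeR threshold in eWAT (adjusted p = 0.0132), and the adjusted p in iWAT and BAT came to 0.0751 and 0.0671. Skeletal muscle transcripts set BAT libraries apart: the summed CPM of 15 muscle markers was 160, 55200 and 2440 in WT replicates 1, 2 and 3 and 9190, 622 and 10700 in C6KO replicates 1, 2 and 3, against at most 626 in any white fat library. All 15 markers were above 10 counts in at least 1 BAT library of each genotype. The BAT comparisons were therefore repeated without WT replicate 2, C6KO replicate 1 and C6KO replicate 3, a choice made after these values were seen. WT replicate 2 stood apart in more than muscle. Its lymphocyte markers summed to 109 CPM, against 4.31 to 10.1 CPM in the other BAT libraries. Among BAT libraries it also had the lowest sum of pan-adipocyte markers (22900 CPM) and the highest of white adipocyte markers (1250 CPM).

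The labels of BAT and of white fat were borne out by the lineage marker and by the uncoupling protein. Neither gene was used to tell iWAT from eWAT. Ucp1 (chromosome 8, 83290348 to 83298456) had 75547, 49307 and 59524 counts in WT BAT and 64496, 78691 and 41691 counts in C6KO BAT. The iWAT libraries gave 51, 37 and 23 counts (WT) against 63, 21 and 24 (C6KO), and the eWAT libraries 9, 19 and 3 (WT) against 102, 9 and 14 (C6KO). Ucp1 alone thus took 0.417% to 0.968% of all counts in BAT, and no white fat library approached a BAT library. Zic1 (chromosome 9, 91360345 to 91365799) had 144, 123 and 81 counts in WT BAT and 105, 111 and 116 in C6KO BAT. It had 1 count in all of WT iWAT, 2 counts in all of WT eWAT and 0 in the 6 C6KO white fat libraries, so the classical brown lineage marker was at or near 0 outside BAT.

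**Figure D1:**
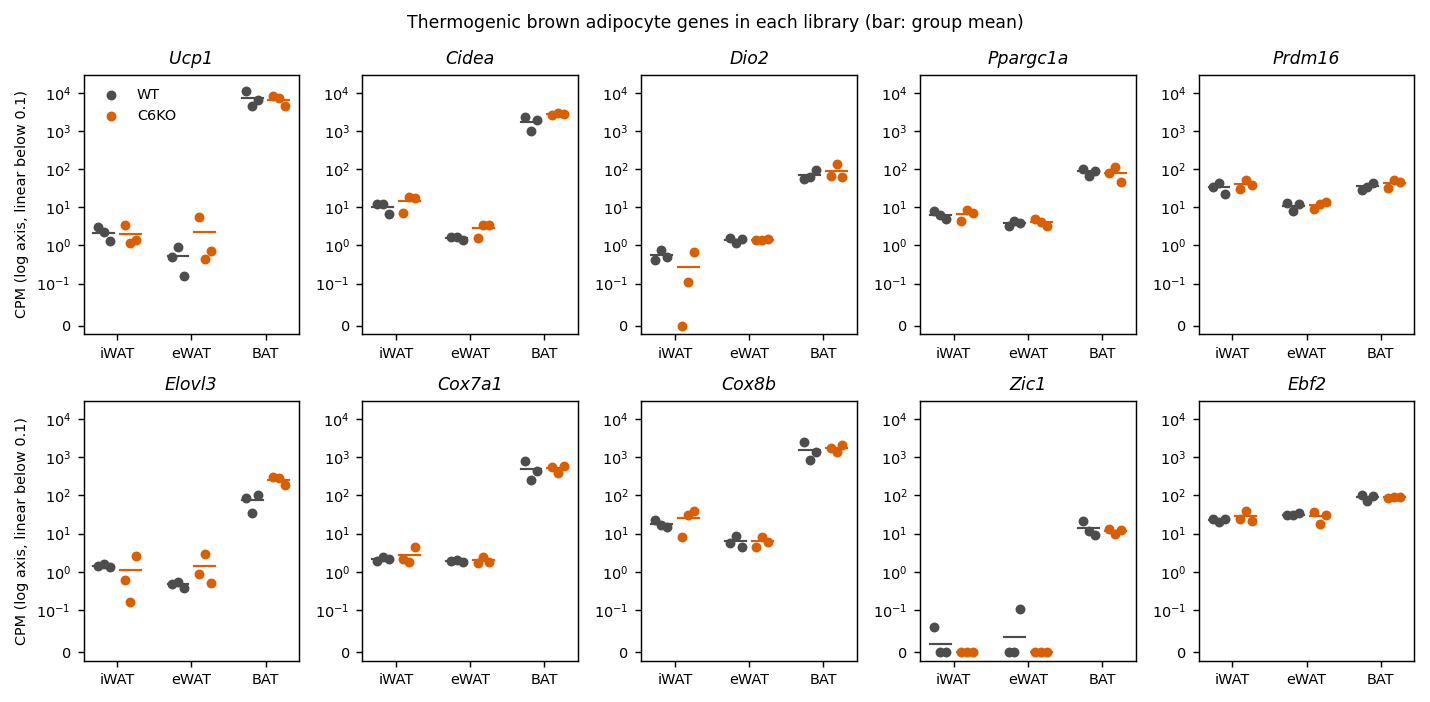
Each panel plots the level of 1 gene in CPM (vertical log axis, linear below 0.1) in the 18 libraries, by depot on the horizontal axis, with WT in grey, C6KO in orange and bars at the group means. BAT stands above both white depots for every gene except Prdm16, whose iWAT and BAT libraries overlap, and Ebf2, whose iWAT counts come from another transcript and are not read against BAT. Zic1 lies at or near 0 in white fat.

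The order of abundance within BAT was read per transcript length (RPKM, CPM per kilobase of the listed transcript, scaled over all 18 libraries). Among WT BAT libraries Ucp1 averaged 4520 ± 2010 RPKM (SD, n = 3) and Cox8b 4330 ± 2400 RPKM, and these 2 overlapped. Cidea (1510 ± 596 RPKM) and Cox7a1 (1340 ± 736 RPKM) followed and also overlapped, and all 4 lay far above Elovl3 at 39.2 ± 18.3 RPKM. The regulators came next, with Ebf2 at 16.1 ± 2.53, Ppargc1a at 13.3 ± 2.76, Prdm16 at 4.14 ± 0.961 and Zic1 at 4.13 ± 1.91 RPKM, while Dio2 stood among them at 11 ± 3.08 RPKM. Ebf2 overlapped Ppargc1a, Ppargc1a overlapped Dio2, and Prdm16 overlapped Zic1. In C6KO BAT Cox8b (4890 ± 1050 RPKM) and Ucp1 (4030 ± 1180 RPKM) again overlapped at the top, Cidea (2400 ± 193 RPKM) stood clear of Cox7a1 (1450 ± 304 RPKM), and Elovl3 reached 138 ± 33.9 RPKM.

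In white fat the order was different. Cox8b led in WT iWAT at 50.7 ± 12 RPKM and in WT eWAT at 17.7 ± 6.29 RPKM, while Ucp1 was 1.33 ± 0.531 RPKM in WT iWAT and 0.322 ± 0.238 RPKM in WT eWAT. Within WT iWAT Prdm16, at 3.86 ± 1.22 RPKM, stood above Ucp1 with no overlap. Both Cox8b and Cox7a1 are short transcripts of 359 and 360 bases, on which a small number of reads makes a large value per length.

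The first comparison asked how far each gene separated BAT from white fat. Ebf2 was counted on another transcript in the iWAT table and is left out of the counts against iWAT. In WT mice 8 of the other 9 genes were higher in BAT than in iWAT by edgeR (adjusted p below 0.05 and at least 1.5-fold), where 38.7% of the 15866 genes tested were called in either direction and 20.1% were called higher. Against eWAT all 10 were higher, where 48.6% of genes were called and 25% were called higher. C6KO mice gave 8 of 9 (background 38.2%, higher 18%) and 10 of 10 (background 50.1%, higher 23.6%). The median log2 difference between BAT and iWAT in WT was 6.95 for the 9 genes and 0.01 for all genes tested. The genes are known as markers of BAT, so these counts serve as a check of the tissue. With Ebf2 included the counts against iWAT were 9 in each genotype, and all 4 counts on that basis were the same without the 3 BAT libraries rich in muscle transcripts.

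Among the regulators, Ppargc1a, a coactivator of mitochondrial biogenesis (chromosome 5, 51454249 to 51553921), had 697, 715 and 826 counts in WT BAT, 136, 107 and 87 in WT iWAT and 60, 89 and 75 in WT eWAT. Its log2 difference was 3.75 (SE 0.323, adjusted p = 1.67e-07) against iWAT and 4.48 (SE 0.336, adjusted p = 1.59e-08) against eWAT, and the groups did not overlap. Prdm16, a zinc finger coregulator (chromosome 4, 154316125 to 154636873), behaved differently: its WT counts were 191, 369 and 402 in BAT, 583, 720 and 394 in iWAT and 234, 167 and 232 in eWAT. On the CPM scale it averaged 35.6 ± 8.25 in WT BAT and 33.2 ± 10.4 in WT iWAT, with a log2 difference of 0.10 (95% interval -0.47 to 0.68, adjusted p = 0.779). Against eWAT Prdm16 was higher in BAT by 1.69 (SE 0.283, adjusted p = 8.37e-05). In C6KO mice the Prdm16 log2 difference was 0.11 (95% interval -0.47 to 0.68) against iWAT and 1.91 (adjusted p = 2.29e-05) against eWAT.

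Ebf2, which opens brown fat genes to PPARγ (chromosome 14, 67233292 to 67430952), averaged 88.7 ± 14 CPM in WT BAT and 31.4 ± 2.59 CPM in WT eWAT, a log2 difference of 1.5 (SE 0.243, adjusted p = 5.96e-05). The iWAT table counted Ebf2 on another transcript, 5031 rather than 5513 bases long, so its iWAT values (412, 334 and 440 counts in WT) are not read against the other depots. Zic1 reached 348 counts over the 3 WT BAT libraries, and against the single iWAT count the ratio was 674 (95% exact counting interval 120 to 26700). Against the 2 eWAT counts it was 377 (104 to 3130). In C6KO mice, 332 BAT counts were at least 209-fold higher than iWAT and at least 227-fold higher than eWAT, taking 3 counts over the group as the floor. These intervals and floors cover counting error only.

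Dio2, the enzyme that converts thyroxine to its active form (chromosome 12, 90724552 to 90739038), had 379, 681 and 845 counts in WT BAT against 7, 13 and 9 in WT iWAT and 28, 24 and 28 in WT eWAT. Its log2 difference between BAT and iWAT was 6.95 (SE 0.516, adjusted p = 5.83e-08). Leaving Ebf2 aside, Dio2 was the only gene of the 10 with a higher mean in eWAT than in iWAT in both genotypes. In WT that log2 difference was 1.29 (adjusted p = 0.0923 by edgeR and 0.0145 by DESeq2), and in C6KO, where the iWAT counts were 0, 2 and 12 against 26, 28 and 28 in eWAT, it was 2.39 (SE 0.637, adjusted p = 0.00977).

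Ucp1 showed the widest separation, with a log2 difference in WT of 11.73 (SE 0.986, adjusted p = 3.9e-07) against iWAT and 13.74 (SE 1.08, adjusted p = 8.48e-08) against eWAT. Cidea, a lipid droplet protein (chromosome 18, 67343564 to 67367794), had 15705, 10427 and 18050 counts in WT BAT, 200, 205 and 122 in WT iWAT and 30, 34 and 26 in WT eWAT. The Cidea difference was 7.41 (SE 0.467, adjusted p = 7.66e-09) against iWAT and 10.13 (SE 0.532, adjusted p = 5.66e-10) against eWAT. Elovl3, an elongase of very long chain fatty acids (chromosome 19, 46131899 to 46135694), had 578, 373 and 914 counts in WT BAT, 24, 27 and 23 in WT iWAT and 9, 11 and 7 in WT eWAT. Its log2 difference was 5.66 (SE 0.677, adjusted p = 1.29e-05) against iWAT and 7.27 (SE 0.763, adjusted p = 1.84e-06) against eWAT. No WT white fat library overlapped a WT BAT library in any of these 3 genes, while 55.3% of all genes were without overlap between BAT and iWAT and 64.2% between BAT and eWAT.

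Cox7a1 (chromosome 7, 30184171 to 30186030) and Cox8b (chromosome 7, 140898942 to 140900446) encode the heart and muscle forms of 2 cytochrome c oxidase subunits. Cox7a1 had 5286, 2665 and 3894 counts in WT BAT against 32, 40 and 38 in WT iWAT and 35, 41 and 35 in WT eWAT. Cox8b had 17128, 8783 and 12132 counts in WT BAT against 388, 282 and 264 in WT iWAT and 104, 180 and 86 in WT eWAT. Against iWAT the log2 differences were 7.82 (SE 0.454, adjusted p = 4.77e-09) for Cox7a1 and 6.42 (SE 0.592, adjusted p = 7.57e-07) for Cox8b. Against eWAT they were 7.97 and 7.93. Muscle also expresses both genes, and their order against muscle content differed between genotypes. In WT BAT the replicate with the most muscle transcripts (55200 CPM) had the lowest Cox7a1 and Cox8b, at 235 and 774 CPM against 683 and 2210 CPM in the replicate with the fewest. In C6KO BAT the replicate with the fewest (622 CPM) had the lowest, at 364 and 1270 CPM against 523 and 1630 CPM in replicate 1 and 547 and 1930 CPM in replicate 3.

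The muscle-type subunits exceeded their general counterparts in BAT and in neither white depot. Per length, Cox7a1 made up 65.6% to 66.6% of Cox7a1 and Cox7a2 together in WT BAT and 65.6% to 69.7% in C6KO BAT. In WT iWAT the share was 3.84% to 5.39% and in WT eWAT 5.31% to 6.5%. Cox8b made up 66.6% to 71.2% of Cox8a and Cox8b in WT BAT, 5.98% to 7.85% in WT iWAT and 3.64% to 6.2% in WT eWAT. In WT BAT replicates 1, 2 and 3, with 160, 55200 and 2440 CPM of muscle markers, the Cox7a1 share was 65.6%, 65.7% and 66.6% and the Cox8b share 71.2%, 66.6% and 67.1%. In C6KO BAT replicates 1, 2 and 3, with 9190, 622 and 10700 CPM, the Cox7a1 share was 69.7%, 65.6% and 67.3% and the Cox8b share 68.9%, 67.2% and 72.2%, so both were lowest in the muscle-poor library there. The part of muscle RNA in these shares was not tested.

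Among uncoupling proteins, Ucp1 held 92.9% to 97.2% of the Ucp1, Ucp2 and Ucp3 level per length in WT BAT. It held 0.219% to 0.548% in WT iWAT and 0.0117% to 0.0683% in WT eWAT, where Ucp2, a relative abundant in immune cells, reached 815 ± 15.5 RPKM. Elovl3 held 21.4% to 34.2% of the Elovl1 to Elovl7 level per length in WT BAT and 48.4% to 55.0% in C6KO BAT, with no overlap between genotypes. In white fat its share stayed at or below 1.71% in every library. Elovl5 averaged 37.8 ± 9.05 RPKM and Elovl6 40.5 ± 13.2 RPKM in WT BAT, close to Elovl3.

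**Figure D2:**
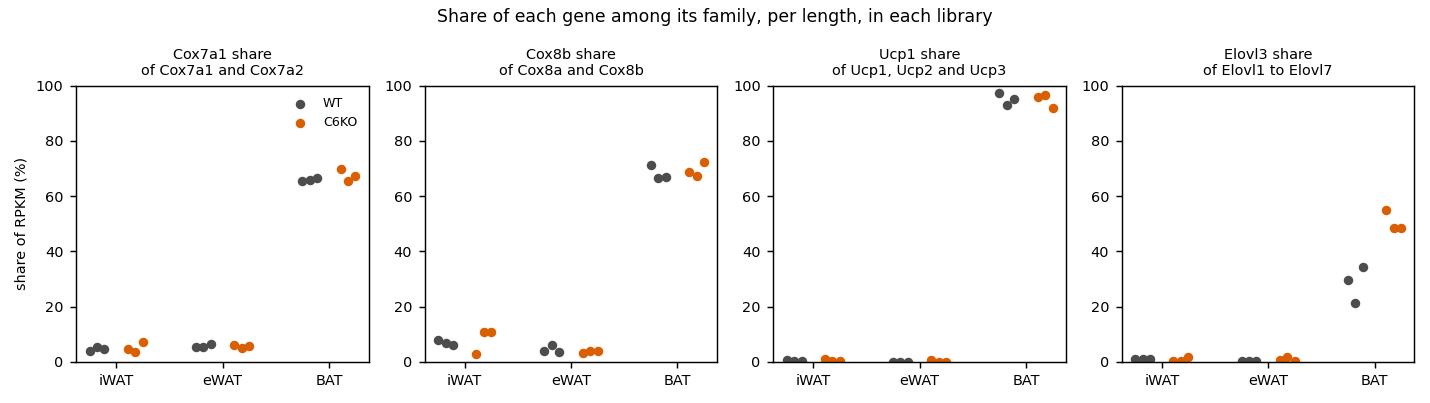
The share of each gene within its family, in percent of the summed RPKM (vertical axis), is plotted for every library by depot, with WT in grey and C6KO in orange. Cox7a1, Cox8b and Ucp1 exceed 65% in every BAT library of both genotypes, while the Elovl3 share separates C6KO from WT within BAT.

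Other close relatives differed in how far they were restricted to BAT. Zic4, which neighbours Zic1 and shares exon bases with it, had 8 to 9 counts in each WT BAT library, 12 to 25 in each C6KO BAT library and 0 in all 12 white fat libraries. Elovl6, at 40.5 ± 13.2 RPKM in WT BAT, averaged 4.43 ± 0.648 in WT iWAT and 2.66 ± 0.311 in WT eWAT. Cidec, a droplet protein of all adipocytes, averaged 2170 ± 219 RPKM in WT iWAT, 855 ± 69.6 in WT eWAT and 955 ± 174 in WT BAT. Ppargc1b averaged 23.1 ± 5.19 RPKM in WT BAT and 1.64 ± 0.289 in WT eWAT. Dio1 had at most 11 counts in any library. Ebf1 averaged 28.7 ± 2.27 RPKM in WT BAT and 39.2 ± 2.75 in WT iWAT, where the same transcript was counted. Ucp3 averaged 106 ± 20.1 RPKM in WT BAT, 22.6 ± 3.77 in WT iWAT and 7.31 ± 0.764 in WT eWAT.

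Between the white depots, 3 of 8 genes were lower in eWAT than in iWAT in WT (25.7% of genes were called, 12.9% lower). Ebf2, counted on another transcript, and Zic1, with its few white fat counts, are left out. Cidea differed by -2.72 (SE 0.425, adjusted p = 0.000219), Prdm16 by -1.59 (SE 0.281, adjusted p = 0.000504) and Cox8b by -1.52 (SE 0.502, adjusted p = 0.0315) on the log2 scale. The Cox8b call was lost when iWAT WT replicate 1 or 2 or eWAT WT replicate 1 or 3 was left out, with adjusted p from 0.0559 to 0.112. In C6KO the same 3 genes were lower and Dio2 was higher, 4 calls against a background of 24.6%. Ucp1 in WT differed by -2.00 (SE 0.916, adjusted p = 0.11) with no overlap between the depots, and its adjusted p was 0.0236 when eWAT C6KO replicate 1 was left out of the shared fit. Ppargc1a (-0.73, adjusted p = 0.0884), Elovl3 (-1.60, adjusted p = 0.177) and Cox7a1 (-0.15, adjusted p = 0.816) were not called in WT.

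The main question of the design was whether loss of caspase-6 changed these genes in obese mice. By edgeR none of them was called in any depot: 0 of the 8 tested in iWAT, where 0.0275% of 14533 genes were called, 0 of the 9 tested in eWAT, where 0.746% of 14889 genes were called, and 0 of 10 in BAT, where 1.24% of 13595 genes were called. Dio2 in iWAT and Zic1 in both white depots had too few counts for the filter. At an unadjusted p below 0.05, 0 genes passed in iWAT (16.5% of all genes), 2 in eWAT (17.6%) and 2 in BAT (13.2%), and these were Cidea and Elovl3 in each case, higher in C6KO (as were 9.81% of all genes in eWAT and 4.56% in BAT at that p). DESeq2 called Elovl3 in BAT (3.7% of 14764 genes called) and none of the 10 in iWAT (4.57%) or eWAT (4.02%). Those tested had a median log2 difference of 0.29 (iWAT), 0.06 (eWAT) and 0.17 (BAT), beside 0.03, -0.01 and -0.03 over all genes tested.

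**Figure D3:**
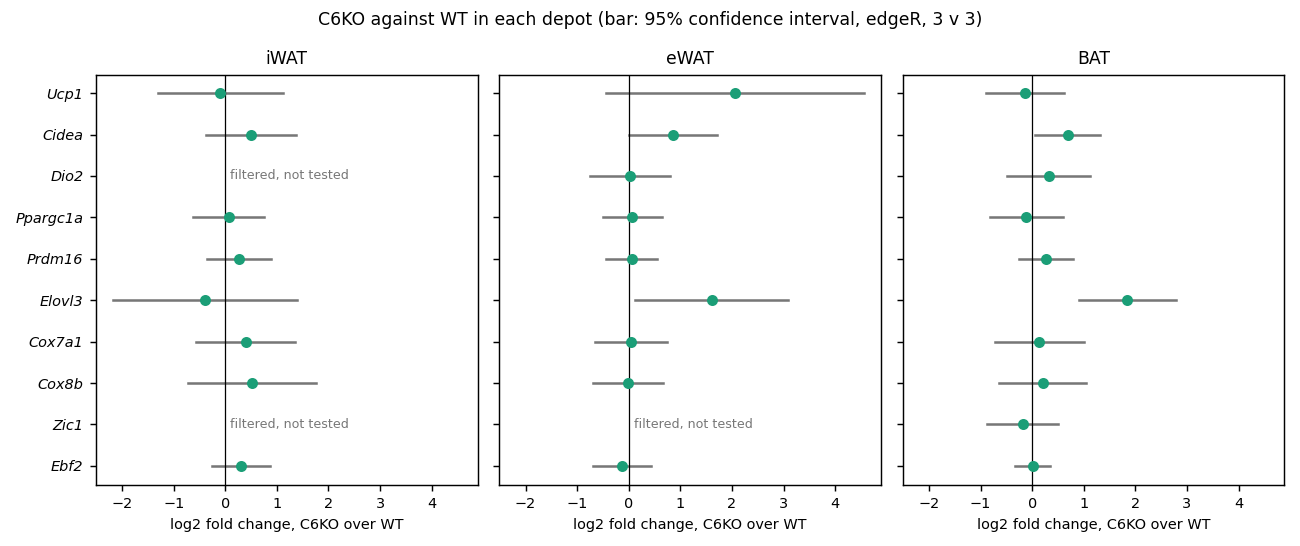
Points give the log2 fold change of C6KO over WT (horizontal axis) and bars its 95% confidence interval for each gene in iWAT, eWAT and BAT, from edgeR fits of 3 against 3 libraries. Elovl3 in BAT, at 1.84, is the point farthest from 0 relative to its interval, and most intervals span 0.

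Elovl3 carried the largest genotype difference in BAT. Its counts were 578, 373 and 914 among WT libraries, against 2360, 3199 and 1732 for C6KO, or 66.3 ± 30.1 CPM against 238 ± 60.1 CPM (SD, n = 3). Every C6KO library lay above every WT library. The log2 difference was 1.84 (SE 0.396, 95% interval 0.90 to 2.78), with an unadjusted p of 0.0024 and an adjusted p of 0.0941 by edgeR and 6.82e-06 by DESeq2. Without WT replicate 2, the BAT library richest in muscle transcripts and lowest in Elovl3, the difference was 1.52 with an edgeR adjusted p of 0.0183. Without all 3 muscle-rich BAT libraries, which left 2 WT libraries and 1 C6KO library assumed to vary like them, it was 1.68 with an adjusted p of 1.72e-05. Over 15 alternatives the estimate ran from 1.52 to 2.18 and the adjusted p from 6.82e-06 to 0.35, so the size was steadier than the call.

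Cidea followed in BAT with 15705, 10427 and 18050 counts among WT libraries, against 20346, 33678 and 25212 for C6KO, or 1580 ± 587 CPM against 2550 ± 209 CPM. The groups did not overlap, as was true of 2 of the 10 genes and of 20.2% of all genes tested (8.07% with C6KO higher). Its log2 difference was 0.69 (SE 0.280, 95% interval 0.06 to 1.32, adjusted p = 0.336), and without WT replicate 2, which had the lowest Cidea, it was 0.42 (adjusted p = 0.306). Set against the summed CPM of 10 genes of all adipocytes, Cidea came to 67.3, 42.6 and 68.2 per 1000 CPM in WT BAT and 94.1, 97.5 and 85.3 in C6KO BAT. Elovl3 came to 2.48, 1.53 and 3.46 in WT and 10.9, 9.26 and 5.89 in C6KO on that scale, where the genotypes did not overlap for either gene. The scale is itself a sum of transcripts, so it does not separate adipocyte content from expression.

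The remaining 8 genes overlapped between genotypes in BAT. Ucp1 averaged 6690 ± 2780 CPM in WT and 6070 ± 1830 CPM in C6KO, a log2 difference of -0.14 whose 95% interval, -0.90 to 0.62, leaves room for a change of either sign, and which was 0.26 without WT replicate 1. Ebf2 had the narrowest interval, 0.01 (-0.33 to 0.34), at 80.6 ± 10.4 CPM in WT and 80.9 ± 1.09 CPM in C6KO. Ppargc1a differed by -0.11 (-0.82 to 0.59), Zic1 by -0.19 (-0.88 to 0.50) and Prdm16 by 0.28 (-0.25 to 0.80). Dio2 differed by 0.32 (-0.49 to 1.13), with 529, 1492 and 567 counts in C6KO. Cox7a1 and Cox8b differed by 0.13 (-0.73 to 0.996) and 0.20 (-0.65 to 1.05). Without the 3 muscle-rich libraries 4 of these estimates turned direction, all of them uncalled: Cox7a1 was then -0.54, Cox8b -0.42, Ppargc1a 0.26 and Ebf2 -0.08. The same fit gave -0.26 for Ucp1, -0.51 for Zic1, 0.56 for Prdm16, 0.90 for Dio2 and 0.55 for Cidea, also uncalled.

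Other cell markers moved with genotype in BAT. Of 13 macrophage markers 7 (Adgre1, Cd68, Trem2, Lgals3, C1qc, Lyz2 and Mpeg1) were called lower in C6KO, beside 1.07% of all genes, and the summed CPM of the list was 1060 to 1550 in WT and 350 to 579 in C6KO. The summed CPM of 10 white adipocyte markers was 635 to 1250 in WT and 126 to 233 in C6KO, with Lep, the hormone leptin, called lower (log2 difference -3.35, adjusted p = 0.0146), while that of the pan-adipocyte markers overlapped at 22900 to 34100 and 27700 to 31600. Muscle markers overlapped between genotypes, and 0 of 15 were called. The part of these shifts in the Elovl3 and Cidea differences was not tested.

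**Figure D4:**
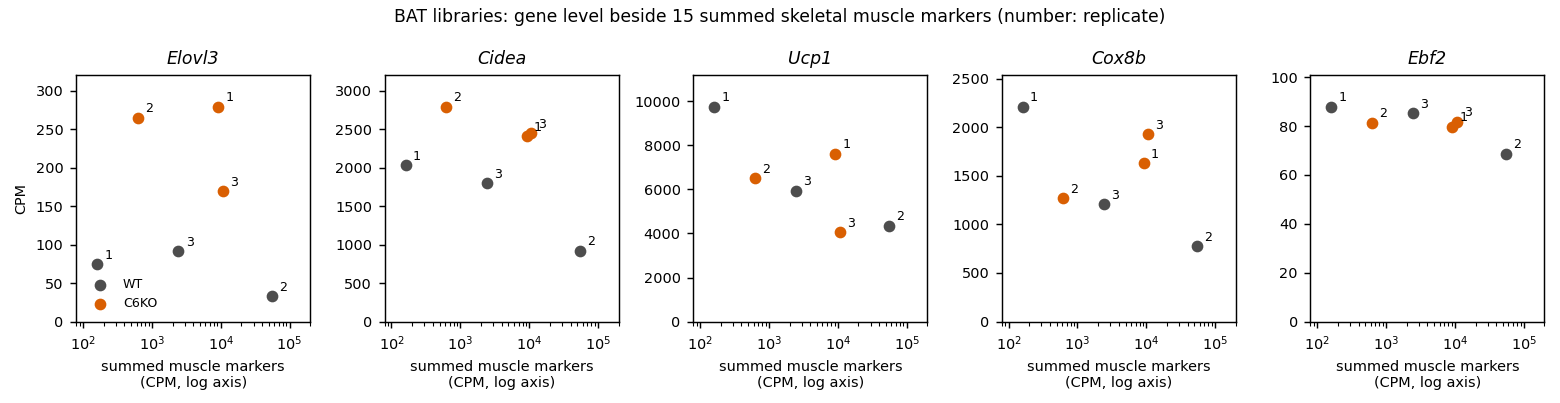
For the 6 BAT libraries, the CPM of Elovl3, Cidea, Ucp1, Cox8b and Ebf2 (vertical axes) is plotted against the summed CPM of 15 skeletal muscle markers (horizontal log axis), with WT in grey, C6KO in orange and the replicate number beside each point. WT replicate 2, at 55200 CPM of muscle markers, is the lowest point for Elovl3, Cidea, Cox8b and Ebf2, and the C6KO points for Elovl3 lie above all WT points at low and at high muscle content.

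In eWAT the 2 genes with an unadjusted p below 0.05 rested on few reads. Cidea had 30, 34 and 26 counts among WT libraries, against 28, 70 and 67 for C6KO, a log2 difference of 0.86 (SE 0.377, adjusted p = 0.276). Elovl3 had 9, 11 and 7 counts among WT libraries, against 16, 59 and 10 for C6KO, a difference of 1.61 (SE 0.658, adjusted p = 0.245) that was 0.59 without C6KO replicate 2. The groups overlapped for both genes. Marker sums moved with genotype in eWAT as well: the pan-adipocyte sum was 10300 to 11800 CPM in WT and 14100 to 17600 in C6KO, where Plin1 (0.62, adjusted p = 0.0468) and Lipe (0.72, adjusted p = 0.0432) were called. Macrophage markers summed to 10400 to 12400 CPM in WT libraries and 7100 to 8930 in C6KO libraries, endothelial markers to 572 to 652 and 831 to 941, and hepatocyte markers to 6.1 to 12 and 24.9 to 72.7. Their part in the Cidea and Elovl3 values was not tested. Per 1000 CPM of the pan-adipocyte markers Cidea was 0.137, 0.163 and 0.129 in WT and 0.0863, 0.198 and 0.248 in C6KO, which overlap. On that scale Dio2 was lower in C6KO without overlap (0.0791 to 0.103 against 0.115 to 0.138 in WT). So were Cox7a1 (0.0987 to 0.139 against 0.16 to 0.196) and Ebf2 (1.04 to 2.14 against 2.52 to 3.22). The pan-adipocyte sum that divides these values was itself higher in C6KO.

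Ucp1 in eWAT had the largest estimate of all, 2.06 on the log2 scale (95% interval -0.44 to 4.55, adjusted p = 0.382), and it came from a single library. C6KO replicate 1 had 102 counts where replicates 2 and 3 had 9 and 14 and the WT libraries had 9, 19 and 3. Without that library the difference was 0.15 (adjusted p = 0.951). In that library Cidea had 28 counts, within the WT range, Elovl3 had 16, and Zic1 had 0. The remaining 6 genes tested in eWAT differed by -0.13 (Ebf2), -0.02 (Cox8b), 0.03 (Dio2), 0.04 (Cox7a1), 0.06 (Prdm16) and 0.07 (Ppargc1a).

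In iWAT, where browning would be sought, Ucp1 was 2.15 ± 0.863 CPM in WT and 2.01 ± 1.32 CPM in C6KO, a log2 difference of -0.10 (95% interval -1.31 to 1.12, adjusted p = 0.949) that was 0.22 without WT replicate 1. Cidea had 200, 205 and 122 counts among WT libraries, against 129, 343 and 303 for C6KO (0.50, -0.37 to 1.36), and Cox8b had 388, 282 and 264 among WT libraries, against 148, 573 and 669 for C6KO (0.52, -0.72 to 1.75). Elovl3 varied most, with 24, 27 and 23 counts among WT libraries, against 11, 3 and 44 for C6KO, a difference of -0.39 (-2.17 to 1.396). Prdm16 (0.27, -0.36 to 0.90), Ebf2 (0.31, -0.25 to 0.86), Ppargc1a (0.06, -0.63 to 0.76) and Cox7a1 (0.39, -0.56 to 1.35) completed the set. All 8 overlapped between genotypes, against 23.2% of all genes that did not. Both Ucp1 and Cidea were spread among the C6KO libraries in opposite order, since replicate 1 was highest in Ucp1 and lowest in Cidea and Cox8b. Cell markers moved with genotype in iWAT without overlap: the pan-adipocyte sum was 28300 to 30100 CPM in WT and 37800 to 45700 in C6KO, and the macrophage sum 3240 to 3730 and 767 to 2360. Per 1000 CPM of the pan-adipocyte markers Ucp1 was 0.1, 0.078 and 0.0433 in WT libraries and 0.0891, 0.0253 and 0.0364 in C6KO libraries, which overlap. The part of these markers in the iWAT values was not tested.

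Whether the genotype difference itself varied between depots was tested as an interaction over all 18 libraries. No gene of the 10 passed between iWAT and BAT (0.183% of 15866 genes called), between eWAT and BAT (0.536%) or between iWAT and eWAT (0% called). The smallest p belonged to Elovl3, whose C6KO difference was 2.21 lower in iWAT than in BAT on the log2 scale (interaction -2.21, SE 0.930, unadjusted p = 0.0323, adjusted p = 0.449). For Ucp1 the difference in eWAT exceeded that in BAT by 2.20 (unadjusted p = 0.0659, adjusted p = 0.484), again with eWAT C6KO replicate 1 in the group. For Cidea, Ppargc1a, Prdm16, Cox7a1, Cox8b, Ebf2 and Dio2 the smallest unadjusted p over the 3 interactions was 0.113 (Dio2, iWAT against BAT), and Zic1, with its few white fat counts, is not read.

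Further thermogenic genes were examined in lists of 20 regulators and 24 effectors, the latter being enzymes, carriers and secreted factors. In BAT of C6KO mice 0 of 20 regulators and 2 of 24 effectors were called, both higher, beside 0.169% of all genes called higher. Slc27a2, a very long chain acyl-CoA synthetase that also takes up fatty acids, had 1575, 1719 and 2368 counts among WT libraries, against 5043, 8794 and 4723 for C6KO, a log2 difference of 1.59 (SE 0.238, adjusted p = 0.0168). Kcnk3, a potassium channel of brown adipocytes, had 2490, 2424 and 3477 counts among WT libraries, against 6576, 8854 and 5788 for C6KO, a difference of 1.23 (SE 0.231, adjusted p = 0.0421). Neither overlapped between genotypes. Among regulators the smallest p belonged to Nfia (0.60, adjusted p = 0.129) and Irf4 (1.61, adjusted p = 0.304). The regulator sum was 6360 to 9220 CPM in WT BAT and 10000 to 11500 in C6KO BAT. It was higher in C6KO without overlap in iWAT (2590 to 3400 against 2340 to 2530) and eWAT (1870 to 1940 against 1720 to 1840). Effector sums overlapped in BAT (15800 to 19400 in C6KO, 12000 to 16400 in WT). They were higher in C6KO without overlap in iWAT (2030 to 2850 against 1650 to 1660) and eWAT (1240 to 2070 against 976 to 1100). The part of adipocyte content was not tested.

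In eWAT 0 of 18 regulators and 1 of 22 effectors were called (0.746% of all genes). Slc27a2 had 2, 0 and 3 counts among WT libraries, against 18, 49 and 57 for C6KO (4.51, SE 0.766, adjusted p = 0.0432). Fgf21, a secreted hormone, and Nrg4, a secreted growth factor of brown fat, had log2 differences of 1.79 (adjusted p = 0.0571) and 0.77 (adjusted p = 0.0524). In eWAT replicates 1, 2 and 3 the hepatocyte markers summed to 10.7, 6.1 and 12 CPM (WT) and 24.9, 67.1 and 72.7 CPM (C6KO). The part of liver transcripts in the Slc27a2 and Fgf21 values was not tested. In iWAT 0 of 20 regulators and 1 of 22 effectors were called (0.0275% of all genes): Plin5, a droplet protein that tethers mitochondria, had 310, 434 and 460 counts among WT libraries, against 1426, 1874 and 1335 for C6KO, a difference of 1.90 (SE 0.177, adjusted p = 0.00823). In BAT, where Plin5 was far more abundant, it had 4894, 4451 and 5718 counts among WT libraries, against 4989, 6094 and 6655 for C6KO. Among the list genes counted on the same transcript in every table, 19 of 21 effectors and 6 of 15 regulators were higher in WT BAT than in WT iWAT, beside 20.1% of all genes. The largest of these differences were those of Fabp3 (11.41) and Slc27a2 (8.44) among effectors and Adrb3 (2.27) and Esrra (2.27) among regulators.

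Of the beige adipocyte markers, 0 of 8 were called in iWAT, 0 of 7 in eWAT and 1 of 7 in BAT, where Klhl13 was lower in C6KO (-1.32, adjusted p = 0.0468) beside 1.07% of all genes called lower. Their summed CPM in iWAT was 143 to 154 in WT and 127 to 154 in C6KO. Outside the adipocyte lists, Ttr, a liver transcript, was called higher in eWAT of C6KO mice (3.50, adjusted p = 0.0432). Lrrn4, from the list of mesothelial and epithelial markers, was called higher in BAT (2.41, adjusted p = 0.0282). The other 11 of the 12 genes of that list had at most 10 counts in every BAT library, so the call rests on Lrrn4 alone. In eWAT Lrrn4 was uncalled (-0.72, adjusted p = 0.665). No endothelial, progenitor, lymphocyte or nerve marker was called in any depot. None of the other 14 nuclear oxidase subunits listed was called in any depot. None of the paralogs was called within a depot either. Elovl6, the paralog that elongates shorter fatty acids, had log2 differences of 1.04 in BAT (SE 0.289, adjusted p = 0.142) and -1.17 in iWAT (SE 0.274, adjusted p = 0.154), and the difference between those 2 effects did pass (interaction -2.19, SE 0.409, adjusted p = 0.0396). Its gene lies at 129532386 to 129638493 on chromosome 3, close to the deleted Casp6, and the part of that position was not tested.

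The genes whose level ran most like Ucp1 over the 18 libraries were Etfdh (Pearson r = 0.99), Hadhb (0.989), Gpd2 (0.988), Rtn4ip1 (0.987) and Map3k15 (0.987), on the log2 CPM scale. Within the set the correlation with Ucp1 ran from 0.549 for Prdm16 to 0.98 for Cox7a1. These values mostly state the gap between BAT and white fat, since the points fall in 3 depots. After the mean of each depot was subtracted, the correlations with Ucp1 lay between -0.39 (Prdm16) and 0.257 (Ppargc1a). The genes most like Ucp1 on that scale were Klb (0.842), Ptprk (0.8), Arhgap29 (0.782), Tom1l1 (0.781) and Adamts9 (0.77). They were picked as the highest among the genes outside the set, so high values are favoured by the choice and serve as description only. Ucp1 counts in white fat ran from 3 to 102, the highest in eWAT C6KO replicate 1. The weight of that library in these values was not tested.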

How the data were processed

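Poly(A) RNA libraries were sequenced on a NextSeq 2000. Per the study's methods the authors aligned reads to mm10 with STAR and counted exons with HOMER, keeping 1 transcript per gene, and they deposited raw counts for each depot. Versions, annotation and strand setting are not given in the sources used here. Without strand, GENCODE exons that overlap Dio2 (100 bases), Ebf2 (424), Elovl3 (10), Prdm16 (109) and Zic1 (60) cannot be told apart from them. The transcript counted differed between tables for 2619 genes, Ebf2 among them.

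Counts were tested with edgeR 4.0.16 (filterByExpr, TMM, robust quasi-likelihood) in R 4.3.3, WT against C6KO within each depot, and in a single fit of all 18 libraries for depot contrasts and interactions. Benjamini-Hochberg adjustment ran over all genes tested. Calls required adjusted p below 0.05 and, except for interactions, at least 1.5-fold. DESeq2 1.42.0 was an alternative. The scripts were tested on simulated data. The labels call the libraries biological replicates but do not tie them to animals, so p-values measure the spread between these libraries.

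The 10 genes and all lists were chosen with earlier results of these data known. The rule was to name the 10 in every comparison, by ranges and counts where most were alike, and list genes where called between genotypes, or else by smallest p. CPM are scaled within depot for WT against C6KO and over all 18 libraries for depot contrasts and marker sums.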

Additional observations from a re-analysis of the deposited data

Results flagged for a closer look

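None of the 10 thermogenic genes passed the test for a C6KO effect that differed between depots, and 6 genes of the lists set beside them did. The test was the interaction term of the 18-library edgeR fit at an adjusted p below 0.05. Of all 15866 genes tested, 0.183% passed between iWAT and BAT, 0.536% between eWAT and BAT and 0% between iWAT and eWAT. The lists hold many more genes than 10, so the counts are not compared. The elongase Elovl6 had a lower C6KO effect in iWAT than in BAT on the log2 scale (interaction -2.193, adjusted p = 0.0396). The thioesterase Acot11 also had a lower effect in iWAT than in BAT (-2.658, adjusted p = 0.00997). Klhl13, a beige marker, had a higher effect in eWAT than in BAT (1.691, adjusted p = 0.00773). The white adipocyte gene Lep had a higher effect in iWAT (3.138, adjusted p = 0.0105) and in eWAT (3.872, adjusted p = 0.00152) than in BAT. Nnat did so as well in iWAT (2.481, adjusted p = 0.0394) and in eWAT (2.811, adjusted p = 0.0108), and Mest did so in eWAT (3.038, adjusted p = 0.0233).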

How the results depend on the processing

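The count of called genes was compared over 12 comparisons. For C6KO against WT in BAT it was 0 by edgeR and became 1 (Elovl3) with DESeq2, 1 without WT replicate 2 and 1 without the 3 muscle-rich BAT libraries, and it ranged from 0 to 1 over the fits that each left out a replicate. Counting Ebf2, for BAT against iWAT it was 5 in WT and 5 in C6KO, and for BAT against eWAT 6 in WT and 6 in C6KO, when at least 10 counts were required in every library, because that filter left 6 of the 10 genes to test. The other 264 counts were within 1.5 times the main count, and no called gene changed sign. Uncalled estimates did: for C6KO against WT, under at least 1 alternative the direction turned for 5 of the genes tested in iWAT, for 6 of those in eWAT and for 7 of the BAT genes, such as Ucp1 in iWAT (-0.10, and 0.223 without WT replicate 1) and in BAT (-0.14, and 0.259 without WT replicate 1) and Elovl3 in iWAT (-0.39, and 0.124 without C6KO replicate 2). Over all genes, C6KO against WT gave 4, 111 and 168 calls in iWAT, eWAT and BAT by edgeR and 666, 619 and 547 by DESeq2. Among single genes, 10 gained and 4 lost their call under an alternative. The 4 losses were Cox8b between eWAT and iWAT in WT.

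Same-numbered WT and C6KO libraries did not vary together (iWAT correlations of 0.0224 to 0.0368, eWAT correlations of -0.104 to 0.161 and BAT correlations of -0.603 to -0.244), so the numbers were not taken to pair the genotypes. Between depots of a genotype, same-numbered correlations ran from -0.0655 to 0.219. Most lay above the mean for other numbers of the same depots, which ran from -0.0588 to 0.000848. Whether depots share animals stays unknown, and the main depot contrasts and interactions treat the libraries as independent. With the replicate block the count of called genes stayed 0 in each depot for C6KO against WT, Elovl3 in BAT was 1.93 (adjusted p = 0.258), and the change in the white depots was the Ucp1 call between eWAT and iWAT in WT (-1.97, adjusted p = 0.0492).

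Limits: 3 libraries a group leave wide intervals, Ucp1, Elovl3, Dio2 and Zic1 have few counts in white fat, and BAT libraries were the shallowest. Fits that leave out a library can leave unequal groups.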
